A study of Mus musculus with 4 samples.

Results

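The genes of the mitochondrial ribosomal proteins were followed across 4 RNA sequencing libraries of mouse 3T3 cells. Members were all protein-coding genes with a symbol of Mrpl or Mrps and a number, pseudogenes left out. This gave 77 genes of the 12208 in the expression table, 48 named Mrpl and 29 named Mrps, and all 77 passed the filter that left 12160 genes for testing. The annotation lists 78 such genes, and the 78th, Mrpl53, is not analysed here. The cells were either control cells or cells given recombinant LTα1β2, a membrane-type lymphotoxin of the TNF superfamily that acts through the lymphotoxin β receptor and NF-κB. Each was taken at 24 h and at 48 h, as 1 library per group. The labels give no genotype and no dose, and the agent is written rhLTα1β2 in the series title. The labels call 3T3 a pre-osteoblast line, while the name is also that of fibroblast lines; of 10 pre-osteoblast markers 8 were measured, Runx2, Sp7 and Col1a1 among them, and Alpl and Ibsp are not analysed here. Of 6 fibroblast markers 4 were measured, among them Col3a1 at 2270 CPM in control at 24 h. The 8 pre-osteoblast markers include Bglap at only 1.13 CPM in that library. Of 6 macrophage markers 4 were measured too, with Lyz2 at 61.7 CPM and Csf1r at 1.56 CPM there. The number of markers measured therefore does not settle what the cells are.

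The mitochondrial ribosome, or mitoribosome, translates the few messenger RNAs that mitochondrial DNA encodes, which specify core subunits of the respiratory chain and the ATP synthase. Its RNA is transcribed inside the organelle, but its proteins are encoded in the nucleus, made by cytosolic ribosomes and imported, so mitoribosome assembly joins products of separate genomes. Proteins named Mrpl belong to the large subunit and those named Mrps mostly to the small subunit. Many descend from bacterial ribosomal proteins, and others were added during the evolution of mitochondria.

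The libraries held 15995777 reads (control, 24 h), 13097396 reads (control, 48 h), 14986101 reads (LTα1β2, 24 h) and 11355974 reads (LTα1β2, 48 h), recovered from the deposited CPM values (counts per 1000000). The least deeply covered member had 132, 121, 117 and 100 reads in these libraries. The LTα1β2 48 h library stood apart: the read-weighted median transcript length was 1815.5 bases there and 2128 to 2184 bases in the other libraries. Short transcripts as a whole therefore held more of its reads, and the members are short, with a median of 1056 bases against 2225 in tested protein-coding genes. Every difference between treated and control cells at 48 h rests on this library. Because every group is 1 library, differences at 1 time point could not be set against replicate spread, and fewer cells of a kind cannot be told apart from less RNA per cell. The summed level of the 8 pre-osteoblast markers was 17180 CPM (24 h) and 15994 CPM (48 h) among controls, against 11655 CPM (24 h) and 9710 CPM (48 h) under LTα1β2. For the 4 fibroblast markers it was 2721 CPM (24 h) and 3128 CPM (48 h) among controls, against 1987 CPM (24 h) and 1701 CPM (48 h). Each sum was mostly a single collagen gene. At 48 h Col1a1 stood at 14201 CPM in control and 7356 CPM in LTα1β2, and Col3a1 at 2682 and 1382 CPM. The sums therefore do not stand for every marker, and Pdgfra was at 107 and 109 CPM. At 48 h Sp7 stood at 30.8 CPM in control and 7.93 CPM in LTα1β2, whereas Spp1 stood at 1525 and 2210 CPM. The part of these shifts in the members' values was not tested.

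Promoter windows of 4 members are printed because 3 of them (Mrps18c, Mrps33 and Mrpl33) are the members that passed the test of treatment, and the fourth, Mrps18b, is a paralogue of Mrps18c with the opposite sign at 48 h. Each window spans 250 bases before to 50 bases after a transcription start, from RefSeq on GRCm38.p6. They lie at chr5:100798509-100798808 (plus strand), chr6:39810887-39811186 (minus strand), chr5:31613701-31614000 (plus strand) and chr17:35916391-35916690 (minus strand). Capitals mark matches, on either strand, to the core letters of ETS factors (CCGGAAG, read CTTCCGG on the other strand), NRF1 (GCGCANGCG), the E-box (CACGTG) and the GC box (GGGCGG), and no 2 of these matches overlap.
Mrps18c: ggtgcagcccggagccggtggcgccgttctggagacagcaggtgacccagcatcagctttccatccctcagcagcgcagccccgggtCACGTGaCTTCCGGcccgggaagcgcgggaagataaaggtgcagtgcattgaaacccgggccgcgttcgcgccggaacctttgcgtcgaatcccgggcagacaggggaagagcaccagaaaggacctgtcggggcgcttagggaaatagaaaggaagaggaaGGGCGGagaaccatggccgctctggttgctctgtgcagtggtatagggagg
Mrps33: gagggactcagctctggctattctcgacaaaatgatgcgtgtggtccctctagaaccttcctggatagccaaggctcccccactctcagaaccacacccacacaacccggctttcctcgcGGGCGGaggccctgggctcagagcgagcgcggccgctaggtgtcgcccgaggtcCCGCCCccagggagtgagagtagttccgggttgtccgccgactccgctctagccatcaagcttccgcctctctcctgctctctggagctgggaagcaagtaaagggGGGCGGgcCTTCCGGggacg
Mrpl33: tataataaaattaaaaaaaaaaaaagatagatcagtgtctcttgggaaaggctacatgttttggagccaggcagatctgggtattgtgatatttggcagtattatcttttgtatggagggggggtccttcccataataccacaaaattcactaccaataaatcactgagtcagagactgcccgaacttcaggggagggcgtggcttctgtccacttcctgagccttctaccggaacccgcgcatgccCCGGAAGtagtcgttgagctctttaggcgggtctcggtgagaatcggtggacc
Mrps18b: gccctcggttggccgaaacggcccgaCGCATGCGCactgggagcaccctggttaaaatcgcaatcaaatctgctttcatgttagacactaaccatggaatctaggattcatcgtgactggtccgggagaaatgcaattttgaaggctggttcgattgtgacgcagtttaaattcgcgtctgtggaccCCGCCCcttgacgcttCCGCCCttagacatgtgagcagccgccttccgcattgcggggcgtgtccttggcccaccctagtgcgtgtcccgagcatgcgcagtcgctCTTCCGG
All 4 windows hold the ETS letters, and the window of the remaining S18 paralogue, Mrps18a, holds them too. The letters therefore occur in the members with the highest and with the second-lowest fold at 48 h. A match describes the letters of a window and is not evidence that a factor binds.

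The members held a larger share of the LTα1β2 48 h library than of the others. Their share was 0.255% of reads in control at 24 h, 0.261% in control at 48 h, 0.271% in LTα1β2 at 24 h and 0.337% in LTα1β2 at 48 h. The median member had 29.9 CPM (24 h) and 32.0 CPM (48 h) among controls and 32.2 CPM (24 h) and 40.0 CPM (48 h) under LTα1β2. The 3 other libraries thus lay close together, and the LTα1β2 48 h library lay above them. It held the highest value for 63 of the 77 members (81.8%), against 27.4% of all tested genes. Both treated libraries lay above both controls for 44 members and below both for 1, where the shares over all tested genes were 20.8% and 21.3%.

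Whether treatment moved a gene over both times was tested with limma, with both times in 1 additive fit and time as a covariate. Of 77 members 3 rose and 0 fell at a Benjamini-Hochberg adjusted p of 0.05 over all tested genes. Over all tested genes 2.92% rose and 2.27% fell. At an unadjusted limma p under 0.05 there were 18 members higher and 1 lower, where 8.54% and 7.72% of all genes were, and limma voom on the recovered reads also gave 3 and 0. The time term called 0 members in either direction, where 0.485% and 0.493% of all genes were called; 13 members were under an unadjusted p of 0.05, where 13.6% of all genes were, and voom likewise called 0. The 3 calls rest on a fit with 1 residual degree of freedom: without the LTα1β2 48 h library 0 members passed (5 higher and 1 lower at an unadjusted p under 0.05), and without the LTα1β2 24 h library 39 rose and 0 fell, in a fit that called 15.5% of all genes higher and 25.2% lower. Leaving out the control library of 24 h or of 48 h also left 0 calls, with 0 and 1 members under an unadjusted p of 0.05, and none of the 3-library fits could hold a time term. With all 4 libraries the 3 calls became 0 under median-of-ratios rescaling, 0 without the time term, 0 with the prior degrees of freedom estimated after rescaling, and 1 (Mrps18c) without the variance trend.

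Mrps18c encodes the mitochondrial counterpart of bacterial S18 in the small subunit and gave the largest difference. It stood at 8.25 CPM in control and 10.3 CPM in LTα1β2 at 24 h, and at 9.24 CPM and 23.3 CPM at 48 h. The treated 48 h value was thus far above the other 3, which lay close together. The ratio was 1.25 at 24 h (exact 95% counting interval 0.987 to 1.59) and 2.53 at 48 h (2.03 to 3.16). The limma log2 fold was 0.77 ± 0.19 (SE), with an adjusted p of 0.00304 (limma). This SE is the spread typical of genes of its level and not the spread of this gene, whose ratios differed between the times. The adjusted p was 0.134 under median-of-ratios rescaling, 0.528 without the time term and 0.229 with the prior degrees of freedom estimated after rescaling, so the call did not hold there. The gene lies on chromosome 5, at 100798627 to 100804471 of the plus strand in GRCm38, has 5 exons in its median transcript of 638 bases, and starts 29 bases from the oppositely oriented helicase gene Helq. Helq had log2 folds of -0.14 at 24 h and -0.23 at 48 h, so the neighbours did not share a direction.

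Mrps33 encodes a small-subunit protein without a bacterial counterpart. It stood at 16.6 CPM in control and 22.4 CPM in LTα1β2 at 24 h, and at 18.6 CPM and 31.0 CPM at 48 h. Both treated values were above both controls. The ratio was 1.35 (1.15 to 1.59) at 24 h and 1.66 (1.41 to 1.97) at 48 h, and its limma log2 fold was 0.56 ± 0.18 (SE, adjusted p = 0.0427). Its counting interval lay above 1 at both times, which that of Mrps18c did not. It lies on the minus strand of chromosome 6, at 39801804 to 39810988, with a transcript of 717 bases.

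Mrpl33 encodes the counterpart of bacterial L33, a small protein of the large subunit. It stood at 54.8 CPM in control and 65.3 CPM in LTα1β2 at 24 h, and at 51.9 CPM and 90.3 CPM at 48 h. Its treated values, too, were both above its controls. The ratio was 1.19 (1.09 to 1.31) at 24 h and 1.74 (1.58 to 1.92) at 48 h, and the limma log2 fold was 0.52 ± 0.17 (SE, adjusted p = 0.046). The gene covers 31596935 to 31664384 of the plus strand of chromosome 5 and overlaps Rbks on the other strand. Whether the authors counted with the strand is not given in the sources used here, so reads of overlapping genes may have been shared. The calls of Mrps33 and Mrpl33, unlike that of Mrps18c, did not hold once each library's trend with transcript length had been removed, where Mrpl1 and Mrpl35 rose and Mrps36 fell instead. The first 3 panels of the plot of single members show these genes.

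**Figure D1:**
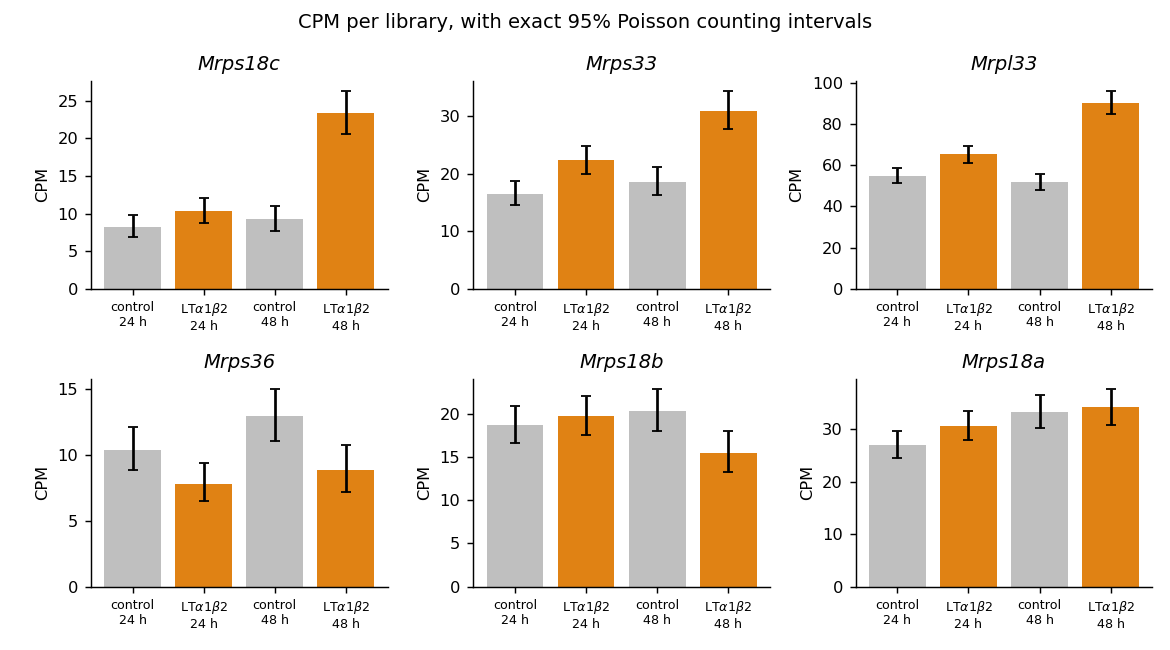
CPM of 6 members in each of the 4 libraries (grey, control; orange, LTα1β2), where the bars are single libraries and the whiskers exact 95% Poisson counting intervals of that library. Mrps18c, Mrps33 and Mrpl33 were highest in the LTα1β2 48 h library, Mrps36 was lower in both treated libraries than in both controls, Mrps18b was lowest in the LTα1β2 48 h library, and the intervals of Mrps18a overlap between treated and control at both times.

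At 24 h the members differed little in size from the rest of the transcriptome, though more of them lay above 0. Their median log2 fold, the difference of log2(CPM + 1) between LTα1β2 and control, was 0.08 and that of all tested genes 0.02. It was above 0 for 59 of the 77 (76.6%), against 54.9% of all tested genes. At the size rule of 1.5-fold 0 members were higher and 0 lower, where 1.48% and 1.35% of all genes passed. The counting interval of the ratio lay above 1 for 14 members and below 1 for 2, against 20.3% and 14.5% of all genes. Mrpl4, which encodes a core protein of the large subunit, had the highest member fold at this time. It stood at 32.1 CPM in control and 45.8 CPM in LTα1β2 at 24 h, and at 39.5 and 54.5 CPM at 48 h. The ratios were 1.43 (1.27 to 1.61) and 1.38 (1.23 to 1.55), so its difference was about the same at both times. Its limma log2 fold of 0.48 did not pass (adjusted p = 0.0798).

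At 48 h most members were higher in LTα1β2. The median log2 fold was 0.32, against -0.09 for all tested genes, and 69 of the 77 (89.6%) lay above 0, against 40.7%. At 1.5-fold 18 members were higher and 0 lower, 13 named Mrpl and 5 named Mrps, where 7.39% of all genes were higher and 6.28% lower. With each library's trend with transcript length removed, 9 members were higher and 1 (Mrps36) lower, against 5.20% and 6.67% of all genes. The counting interval lay above 1 for 52 members and below 1 for 2, where over all genes 21.6% lay above and 34.2% below. Just inside the size rule were Mrps24 and Mrpl48 (log2 folds of 0.60 each), and just outside it Mrps22 and Mrpl9 (0.58 each). After Mrps18c, the members with the highest 48 h folds, named after their values were seen, were Mrpl34 (0.84), Mrpl33 (0.79), Mrpl35 (0.75), Mrpl1 (0.73) and Mrpl52 (0.73). Mrpl34 illustrates the spread between the times, with 11.9 CPM in control and 11.3 CPM in LTα1β2 at 24 h, and 10.6 and 19.8 CPM at 48 h. Only its treated 48 h value stood out.

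**Figure D2:**
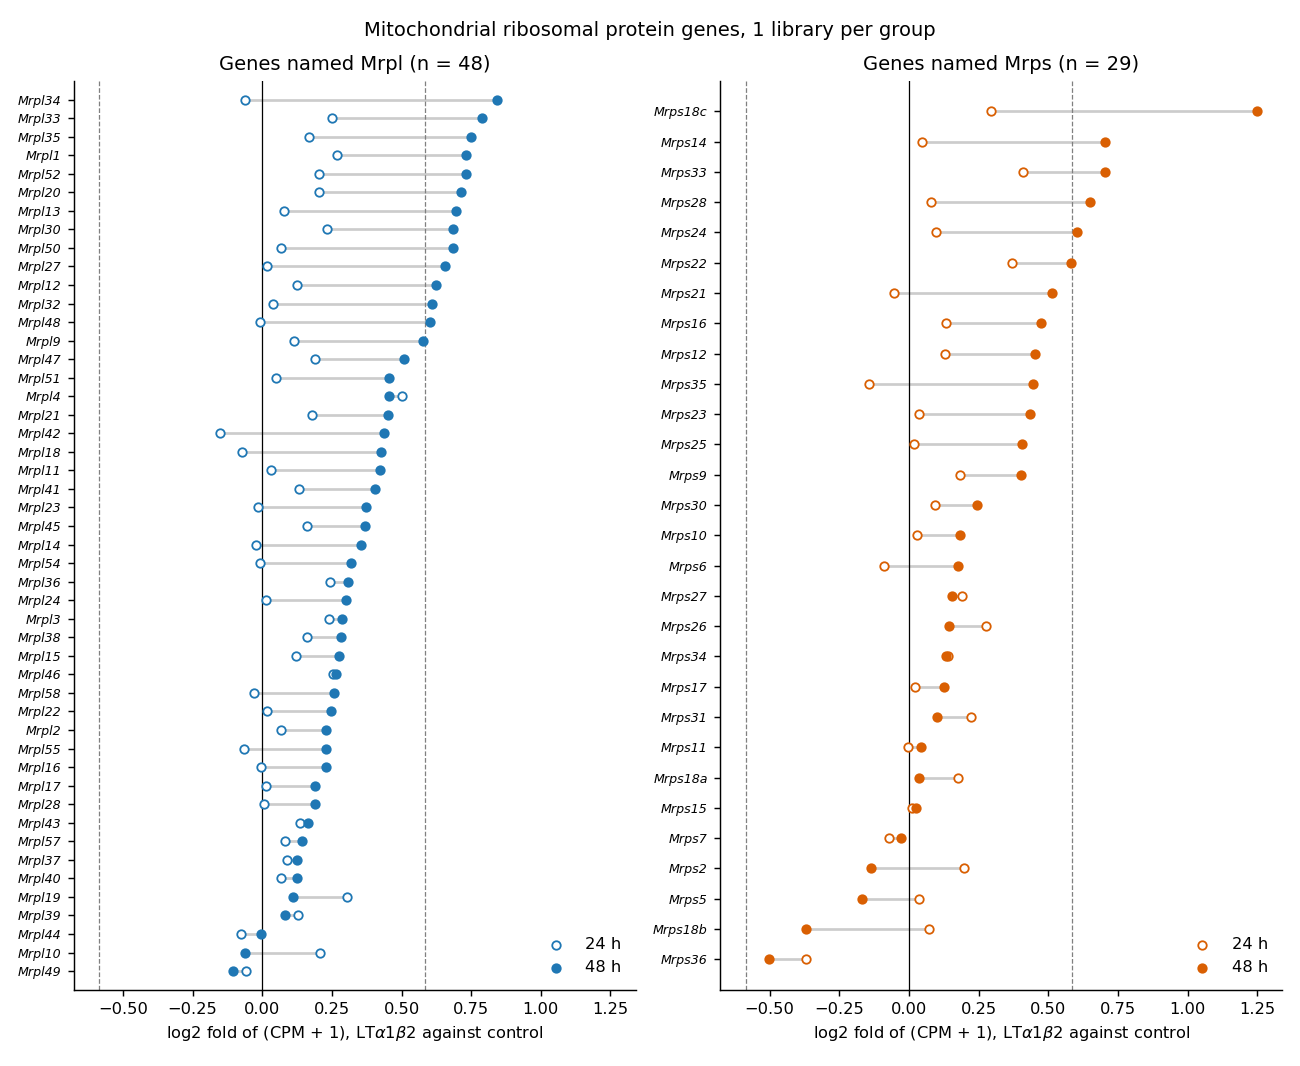
Log2 fold of (CPM + 1) in LTα1β2 against control at 24 h (open circles) and 48 h (filled circles) for each of the 48 genes named Mrpl and 29 named Mrps, ordered by the 48 h fold, with dashed lines at 1.5-fold in either direction and 1 library per group. No member passes a dashed line at 24 h, and 18 pass the upper line at 48 h, with Mrps18c farthest to the right and Mrps36 farthest to the left.

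Folds were above 0 at both times for 55 members, against 28.8% of all tested genes. They were below 0 at both for 4 members, against 4040 of the 12160 tested genes. The order of the members was only loosely shared between the times. Across the 77 members the 24 h and 48 h folds, which share no library, had a Spearman's rho of 0.22 and a Pearson's r of 0.32, against 0.42 and 0.49 across all tested genes; genes of 1 library are not independent, so these are descriptions.

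Within a treatment, the members differed between the times in LTα1β2 and hardly in control. In control cells the median log2 fold of 48 h against 24 h was 0.04, and 0 members passed 1.5-fold in either direction, where 0.403% of all genes were higher and 0.995% lower. In LTα1β2 cells the median was 0.29, and 12 members were at least 1.5-fold higher and 0 lower, against 5.58% and 6.95% of all genes. Median-of-ratios rescaling moved the median of all genes in this contrast from -0.13 to 0.00, a shift of 0.13, and that of the members to 0.42, with 25 members then at least 1.5-fold higher, against 8.74% of all genes. Removal of the length trend left 5 higher, against 3.37%. Mrpl48, a protein of the central protuberance, shows the pattern: its control values were 29.9 CPM (24 h) and 32.0 CPM (48 h), and its treated values 29.7 CPM and 49.1 CPM. This comparison shares the LTα1β2 48 h library with the treatment comparison at 48 h.

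To set the members beside genes of like transcript length and level, each fold was compared with the median of all tested genes outside the family within 0.25 log2 of its length and 0.5 log2 of its level. Between 25 and 511 such genes were found per member, with a median of 252. Such genes had a median fold of 0.07 at 48 h, above the -0.09 of the whole transcriptome but below the 0.32 of the members. The median difference of a member from its like genes was 0.33 at 48 h, with 64 of 77 members above. It was 0.06 at 24 h (49 of 77), 0.05 for time in control (48 of 77) and 0.27 for time in LTα1β2 (64 of 77). The like genes of a member passed 1.5-fold upwards at 48 h in 11.4% of cases on average, while 18 of the 77 members did. These are descriptions of 1 library per group and not tests.

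**Figure D3:**
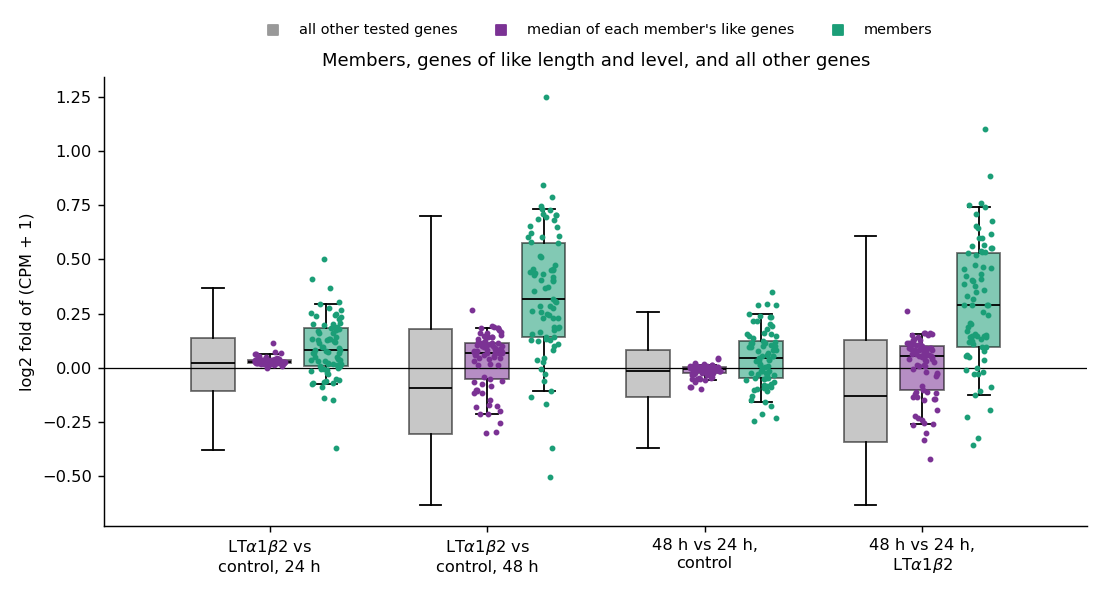
Log2 fold of (CPM + 1) in the 4 contrasts for all other tested genes (grey), for the median of each member's like genes in length and level (purple) and for the 77 members (green); boxes show quartiles and medians, whiskers the 5th to 95th percentile, and coloured points are single members or their like-gene medians. Members lie near their like genes at 24 h and in the control time contrast, and mostly above them in the contrasts that hold the LTα1β2 48 h library.

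The choice of length changed the size of this difference but not its sign. With the longest annotated transcript in place of the median one it was 0.18 at 48 h, with 56 members above, and with the coding length, an alternative added after the data were seen, it was 0.25 over the 76 members with a like gene. Grouped by transcript length, the 26 shortest members lay 0.34 above their like genes at 48 h, the 25 of middle length 0.10 and the 26 longest 0.40. The longest members thus differed as much as the shortest, although their own median fold was lower (0.28 against 0.44). Across the members the 48 h fold had a Spearman's rho of -0.21 with transcript length, and across all tested genes -0.39. At 24 h the values were 0.15 and -0.03.

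**Figure D4:**
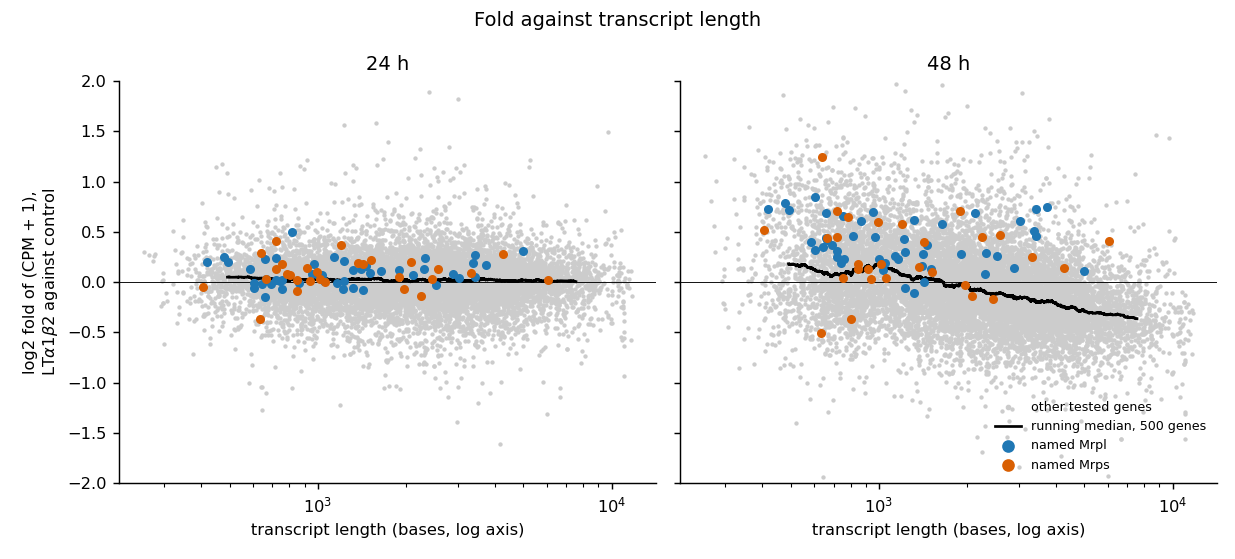
Log2 fold of (CPM + 1) in LTα1β2 against control by transcript length (log axis) at 24 h and 48 h, for genes named Mrpl (blue), genes named Mrps (orange) and all other tested genes (grey), with a running median over 500 of the others (black line); folds beyond the axis range are not drawn. The line is flat at 24 h and declines with length at 48 h, and most members lie above it at 48 h at every length.

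The extremes of length show the same mixture. The shortest members are Mrps21 (405 bases), Mrpl52 (418) and Mrpl33 (478), with 48 h log2 folds of 0.51, 0.73 and 0.79. The longest are Mrps25 (6073 bases), Mrpl19 (5000) and Mrps26 (4278), with 0.41, 0.11 and 0.14. Their like genes differ as well, so that Mrps25 lay 0.71 above its like genes and Mrps21 0.46 above. Mrpl1, whose bacterial counterpart forms a mobile stalk of the large subunit, has a transcript of 3431 bases and combined a long transcript with a high fold. It stood at 15.1 CPM in control and 18.4 CPM in LTα1β2 at 24 h (1.22-fold, 1.02 to 1.45), and at 13.3 and 22.7 CPM at 48 h (1.71-fold, 1.41 to 2.08). It lay 0.95 above its like genes at 48 h and did not pass the main test (limma log2 fold 0.50, adjusted p = 0.0944).

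Levels between members can be compared only per length. Per kilobase of transcript the mean over the 4 libraries was highest for Mrpl33 (137 CPM per kb), Mrpl30 (121) and Mrpl52 (120), and lowest for Mrps25 (4.34), Mrpl1 (5.07) and Mrpl19 (5.86). Members of 1 particle, most of which it holds in single copy, thus spanned more than an order of magnitude on this scale. The scale divides by the median annotated length, and which transcripts the cells used was not examined. Mrps25 and Mrpl19 are among the longest members, and Mrpl33 and Mrpl52 among the shortest. In plain CPM the span was narrower, with Mrps25 at 26.5 and Mrpl33 at 54.8 CPM in control at 24 h. The median member stood at 27.0 CPM per kb in control and 29.0 in LTα1β2 at 24 h, and at 26.4 and 34.9 at 48 h. The median tested gene stood between 14.7 and 15.7 CPM per kb in the 4 libraries.

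Members with a bacterial counterpart and members specific to mitochondria were set side by side. The 46 with a counterpart had medians of 0.07 at 24 h and 0.41 at 48 h, with 14 past 1.5-fold at 48 h and 2 past the limma test (Mrps18c and Mrpl33). The 30 measured members specific to mitochondria had medians of 0.09 and 0.26, with 4 past 1.5-fold at 48 h and 1 past the test (Mrps33). Over all tested genes 7.39% were at least 1.5-fold higher at 48 h and 2.92% rose by limma. Median transcript lengths of the 2 classes were 996.5 and 1382 bases. Their median distances from like genes at 48 h were 0.34 and 0.31. By name, the 48 Mrpl genes had 48 h medians of 0.36 and the 29 Mrps genes 0.18. These differences between classes were not tested, and by name, too, the median distance from like genes was closer, 0.33 for Mrpl and 0.34 for Mrps genes.

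The stalk recruits translation factors to the large subunit, and its 3 measured proteins differed among themselves. Mrpl12, which forms the flexible part of the stalk, stood at 30.7 CPM in control and 33.6 CPM in LTα1β2 at 24 h, and at 33.1 and 51.4 CPM at 48 h (1.56-fold, 1.37 to 1.77). Mrpl11, at the factor-binding site, was 1.02-fold at 24 h and 1.35-fold at 48 h (1.18 to 1.55). Mrpl10, which anchors the stalk, stood at 51.2 and 59.3 CPM at 24 h and at 54.0 and 51.7 CPM at 48 h, a ratio of 0.958 (0.857 to 1.07). The 48 h intervals of Mrpl10 and Mrpl12, partners in the stalk, thus did not overlap.

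Proteins around the peptide exit and the membrane anchor had the lowest 24 h median of the structural groups, 0.01, and 0.25 at 48 h. Of these 7 genes 0 passed 1.5-fold at either time, where at 48 h 7.39% of all genes were higher and 6.28% lower. The limma test also called 0, where 2.92% of all genes rose and 2.27% fell. A count of 0 among 7 genes does not set them apart from those shares. At 48 h the counting interval lay above 1 for 5 of them. Mrpl45, which ties the ribosome to the inner membrane, had ratios of 1.12 (0.996 to 1.26) at 24 h and 1.30 (1.14 to 1.48) at 48 h, and Mrpl23 and Mrpl24 were 1.31-fold and 1.24-fold at 48 h. Mrpl17 and Mrpl22 were 1.14-fold (1.03 to 1.27) and 1.20-fold (1.01 to 1.42), while the intervals of Mrpl39 (0.920 to 1.22) and Mrpl44 (0.823 to 1.21) took in 1.

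The central protuberance, which faces the small subunit, had medians of 0.07 and 0.28 over 7 genes. Mrpl27 and Mrpl48 passed 1.5-fold at 48 h, with 1.59-fold (1.42 to 1.79) and 1.54-fold (1.35 to 1.75). Over all tested genes 7.39% were at least 1.5-fold higher at that time. Mrpl18, Mrpl38 and Mrps30 were 1.35-fold (1.20 to 1.53), 1.22-fold (1.08 to 1.39) and 1.19-fold (1.02 to 1.39), and the intervals of Mrpl40 (0.953 to 1.25) and Mrpl46 (0.977 to 1.52) took in 1. All 7 were above 0 at 48 h, against 40.7% of all tested genes and 69 of the 77 members. Mrpl58, a peptidyl-tRNA hydrolase that became a fixed part of the large subunit, had ratios of 0.978 (0.856 to 1.12) and 1.20 (1.04 to 1.39). Mrps12, the counterpart of a protein of the bacterial decoding centre, was 1.10-fold (0.911 to 1.33) and 1.40-fold (1.12 to 1.74).

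The 3 paralogues of S18 separated most. Mrps18c has been described above. Mrps18b, a protein specific to the mitochondrial small subunit, stood at 18.7 CPM in control and 19.7 CPM in LTα1β2 at 24 h, and at 20.3 and 15.5 CPM at 48 h. Its ratio was 1.05 at 24 h (0.894 to 1.24) and 0.763 at 48 h (0.627 to 0.927), so its only low value was the treated 48 h value. Mrps18a, which despite its name sits in the large subunit, stood at 27.0 and 30.6 CPM at 24 h and at 33.3 and 34.2 CPM at 48 h, a ratio of 1.03 (0.893 to 1.18). Transcripts of the 3 are of similar length, at 638, 803 and 752.5 bases for Mrps18c, Mrps18b and Mrps18a, while their 48 h log2 folds were 1.25, -0.37 and 0.04. Mrps18a and Mrps18b did not pass the limma test (adjusted p = 0.852 and 0.776). Whether the copies share enough sequence for the authors' counting to split reads between them was not tested.

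Mrps36 had the lowest fold at both times. It stood at 10.4 CPM in control and 7.81 CPM in LTα1β2 at 24 h (0.752-fold, 0.589 to 0.959), and at 12.9 and 8.81 CPM at 48 h (0.682-fold, 0.528 to 0.879). Both treated values were below both controls, as in no other member. The limma log2 fold was -0.44 ± 0.20 (SE) and did not pass (adjusted p = 0.213). Its protein was named as a small-subunit protein but is now placed in the 2-oxoglutarate dehydrogenase complex of the citric acid cycle, and annotated pseudogenes carry its name, so its level is uncertain if reads were shared with them, which was not tested. The other members lowest by mean fold were Mrpl49 (-0.06 at 24 h and -0.11 at 48 h), Mrps5 (0.04 and -0.17) and Mrps7 (-0.07 and -0.03), and of these 3 the 48 h intervals took in 1.

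Among other genes of mitochondrial gene expression, the mitoribosomal proteins under other names had a 48 h median above that of the members and the 6 remaining lists had medians below it; these differences were not tested. Of the 5 other-named mitoribosomal protein genes 1 rose (limma), where 2.92% of all tested genes did, with group medians of 0.09 and 0.40. This was Chchd1, a small-subunit protein gene with a transcript of 586.5 bases, at 20.4 CPM in control and 21.9 CPM in LTα1β2 at 24 h and at 20.2 and 48.1 CPM at 48 h (2.38-fold, 2.05 to 2.76; limma log2 fold 0.65, adjusted p = 0.00924). Its call, like that of Mrps18c, was lost under median-of-ratios rescaling (adjusted p = 0.189), without the time term (0.578) and without the LTα1β2 48 h library (0.859), all by limma. Only its treated 48 h value stood apart, as for Mrps18c. Dap3, a GTP-binding protein of the small subunit, had ratios of 1.07 at 24 h and 1.11 (1.02 to 1.20) at 48 h.

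Of 26 assembly and rRNA-modification genes 0 passed the limma test, 2 were under an unadjusted p of 0.05, and the medians were 0.01 at 24 h and 0.05 at 48 h. Of 13 translation factors 0 passed, and 0 at an unadjusted p under 0.05, with medians of 0.10 and 0.09; the elongation factor gene Tufm had folds of 0.00 and -0.12. Of 20 mitochondrial aminoacyl-tRNA synthetase genes 0 passed, again with 0 under an unadjusted p of 0.05, and the medians were 0.00 and -0.04. In each of these lists limma voom also called 0. Over all tested genes 2.92% rose and 2.27% fell by limma. At an unadjusted limma p under 0.05, 8.54% of all genes were higher and 7.72% lower. Counts near 0 in lists this short therefore do not set them apart from all genes or from the members. Median transcript lengths of the 3 lists were 1476.5, 1799 and 2013.5 bases, longer than the 1056 of the members.

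Of 14 genes of mitochondrial transcription and RNA processing 0 passed the limma test or voom, with 5 higher at an unadjusted p under 0.05 and medians of 0.12 and 0.15. Over all tested genes 2.92% rose by limma and 8.54% were higher at an unadjusted p under 0.05. At 1.5-fold 4 of the 14 were higher at 48 h and 0 lower, against 7.39% and 6.28% of all genes. Named after its values were seen, Tefm had the highest 48 h fold of the list (ratio 2.02, 1.61 to 2.54). Its limma adjusted p was 0.064. Tfam, which packages mitochondrial DNA and activates its transcription, stood at 39.9 CPM in control and 49.7 CPM in LTα1β2 at 24 h, and at 43.4 and 65.3 CPM at 48 h (ratio 1.51, 1.35 to 1.68). It did not pass (limma log2 fold 0.45, adjusted p = 0.117). Polrmt, the mitochondrial RNA polymerase gene, had folds of -0.07 and -0.15, and Lrpprc, an RNA-stabilising protein gene, 0.07 and -0.05. Of 12 tested mitochondrially encoded mRNAs 1 rose, mt-Nd3, with medians of 0.08 at both times. Their 48 h log2 folds ran from -0.43 to 0.83. The counting interval lay above 1 for 7 and below 1 for 4, where over all genes 21.6% lay above and 34.2% below. At high read counts this interval is narrow. Thus mt-Co1 counted as above 1 at a ratio of 1.03 (1.02 to 1.04) and mt-Nd6 as below it at 0.956 (0.929 to 0.984). Named after their values were seen, the complex I genes mt-Nd2, mt-Nd4 and mt-Nd5 had ratios of 0.743, 0.775 and 0.744, and mt-Co3 one of 1.82. Their levels were far apart. At 48 h mt-Nd2 stood at 3309 CPM in control and 2459 CPM in LTα1β2, but mt-Co3 at only 19.2 and 34.9 CPM. Similarly low were mt-Co2 (33.3 and 42.4 CPM) and mt-Atp6 (19.9 and 31.9 CPM), against 11812 and 12176 CPM for mt-Co1. Whether the authors' counting lost or shared reads of these genes was not tested. The mt-Nd3 value in LTα1β2 was 7.34 CPM at 24 h (control, 5.13) and 8.81 CPM at 48 h (control, 4.58), with an adjusted p of 0.0468 (limma). That call was lost with limma voom (adjusted p = 0.0765), with the length trend removed (0.175) and under rescaling (0.150). Of 8 measured biogenesis regulators 0 passed, 0 were under an unadjusted limma p of 0.05 and voom called 0, with medians of 0.18 and -0.06. Ppargc1a is not analysed here.

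**Figure D5:**
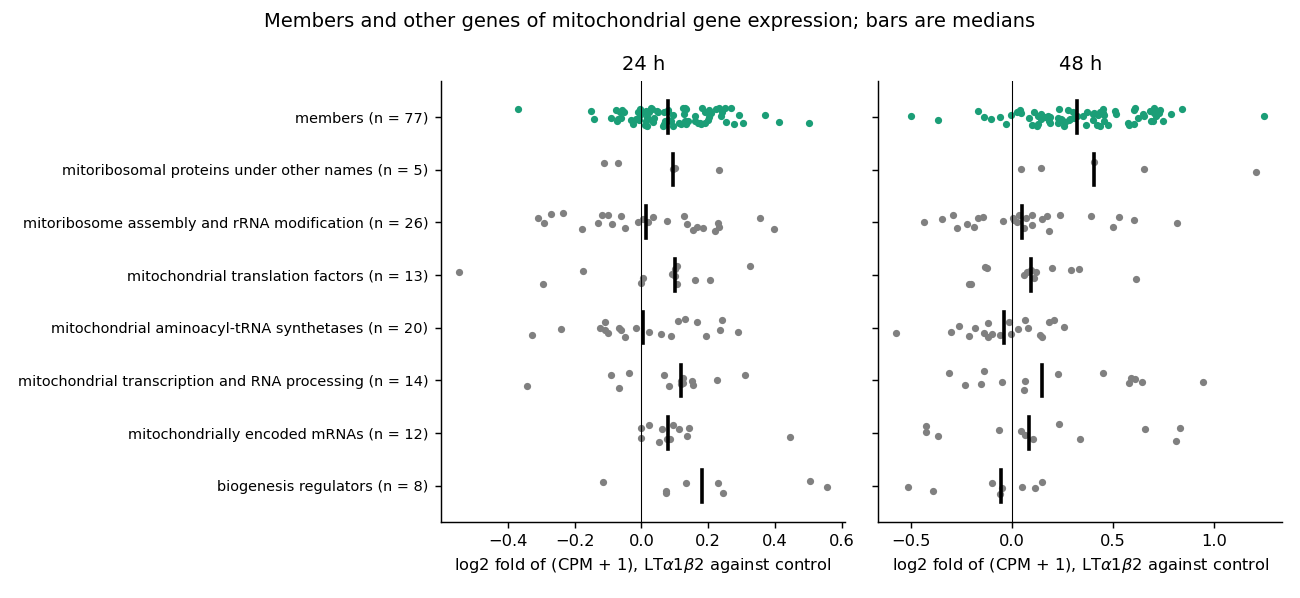
Log2 fold of (CPM + 1) in LTα1β2 against control at 24 h and 48 h for the 77 members (green) and for 7 other lists of mitochondrial gene expression (grey), where points are genes and black bars medians. The medians lie close together at 24 h, and at 48 h those of the members (0.32) and of the mitoribosomal proteins under other names (0.40) are the highest.

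The 2 most similar families are the cytosolic ribosomal proteins and the nuclear subunits of the respiratory chain, both with short transcripts (medians of 688.75 and 680 bases). At 24 h their median log2 folds were 0.12 and 0.04, near the 0.08 of the members. At 48 h they were 0.82 and 0.48, above the 0.32 of the members. Cytosolic ribosomal protein genes held 4.56% to 4.95% of reads in the 3 other libraries and 8.82% in the LTα1β2 48 h library. Of 82 such genes 27 rose and of 77 respiratory chain genes 11 rose, with 0 falling in either family (limma). Over all tested genes 2.92% rose and 2.27% fell. These calls come from the same fit as those of the members. Over all genes its 355 higher calls became 95 under median-of-ratios rescaling and 20 without the time term. The differences from the members were not tested.

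The members have several features that the choice by name did not use. They lie on 17 chromosomes, with 11 on chromosome 11 and 8 on chromosome 17, so they form no single cluster. Their median coding length is 552 bases against 1107 in tested protein-coding genes, and 70.1% have transcripts under 1500 bases against 31.0%. The transcript GC content is alike (medians of 50.4% and 50.7%). For 18 of the 77 (23.4%) a protein-coding gene starts within 1000 bases in the opposite direction, against 11.1% of tested protein-coding genes.

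These 18 head-to-head pairs were compared because the genes start so close together. The median 48 h log2 fold was 0.19 for the members of the pairs and -0.12 for their neighbours. At 48 h 14 members and 8 neighbours were above 0, against 40.7% of all tested genes, and 10 pairs had 1 sign. Whether that is more than unrelated pairs would give was not tested. Among the pairs, picked after their values were seen, Mrpl30 and Mitd1 had 0.69 and 0.95, and Mrpl32 and the proteasome gene Psma2 had 0.61 and 0.81. Mrpl49 and Fau, which encodes a cytosolic ribosomal protein, start 59 bases apart and had -0.11 and 0.55. Mrpl50 and Zfp189, 83 bases apart, had 0.68 and 0.08. Genes with close starts thus had like folds in some pairs and unlike folds in others. By annotation 12 members overlap another gene on the same strand, among them Mrps24 with Urgcp and Mrps34 with Nme3, and 35 overlap a gene on the other strand. These are 15.6% and 45.5% of the members, against 23.5% and 44.7% of tested protein-coding genes.

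Promoter windows were found for 68 of the 77 members, 74 windows in all. The ETS letters CCGGAAG occurred in 33.8% of the members' windows, against 8.86% of all windows of that length and 17.9% of the windows of other tested genes. The NRF1 letters GCGCANGCG occurred in 21.6%, against 6.25% and 13.6%, and the YY1 letters AAGATGGC in 16.2%, against 2.75% and 4.52%. Both NRF1 and ETS family factors are known regulators of nuclear genes for mitochondrial proteins. The E-box (9.46%, against 7.15% and 9.99%) and the GC box GGGCGG (52.7%, against 35.7% and 63.1%) were no more frequent than in other tested genes. The TATA letters TATAAA occurred in 6.76%, against 13.6% and 7.07%.

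The NF-κB letters GGANTTTCC were found in 1.35% of the members' windows, which is 1 window, that of Mrps21, against 1.25% of all windows and 1.30% of those of other tested genes. Mrps21 stood at 39.6 CPM in control and 38.1 CPM in LTα1β2 at 24 h and at 41.1 and 59.1 CPM at 48 h (1.44-fold, 1.28 to 1.61). Other spellings of the site were not searched. The 25 members with the ETS letters had median folds of 0.13 at 24 h and 0.45 at 48 h, and the 43 without them 0.07 and 0.26. For NRF1 the 48 h medians were 0.30 with and 0.34 without the letters, and for YY1 0.23 and 0.36. These are medians over genes of the same libraries and carry no test.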

How the data were processed

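Total RNA of 4 cultures was sequenced with a strand-keeping kit as 150 bp read pairs, per the labels' protocols. The authors deposited CPM values, and each column sums to 1000000. Whole reads were recovered from the CPM steps (100% of values within 0.01 of a whole read) for counting intervals and voom. The lowest value is 9 to 12 reads, so silent genes are not analysed here. Aligner, counter and build: not given in the sources used here; edgeR 3.30.0 is among the tools of the submitters' processing notes. Symbols and lengths (the median over protein-coding transcripts) came from GENCODE M21 (GRCm38), which matched 12205 of 12208 genes.

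Log2 folds compare CPM + 1, which understates low genes. A mean CPM of 1 or more was required for the limma 3.58.1 fit (R 4.3.3, trended, two-sided, Benjamini-Hochberg 0.05, treatment plus time). Since its prior degrees of freedom came out infinite, genes took the spread typical of their level, and p-values cover only the spread between these libraries, which may be technical. The residual of a gene in this fit is the change of its treatment fold between the times, and not replicate spread. Single times had a 1.5-fold size rule and exact conditional binomial 95% intervals, which cover counting error only. Scripts were tested on simulated data. Members and lists were chosen with earlier results of these data known. The rule named the 5 members at each end of the mean fold, 3 at each end of level per kb and of length, those past limma, those of the structural lists and a few always; others are said to be chosen after their values were seen, or mark a threshold. Other settings were pseudocounts, filters, rescaling, removal of the length trend, model terms, voom and each library left out.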

Additional observations from a re-analysis of the deposited data

How the results depend on the processing

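Of the results that answer a comparison, 156 values under other settings stayed near the main value and 28 moved. A count stayed near if it was within 1.5 times of the main count. A main count of 0 that stayed 0 was also taken as near, so the tally does not measure how robust the results are. A median stayed near if it differed by less than the members' typical counting half-width. A median smaller than that half-width could therefore reach 0 and still be taken as near. A change of sign had no label of its own here. The 3 members that rose became 0 with median-of-ratios rescaling, 0 without the time term, 1 without the variance trend and 0 with the prior degrees of freedom estimated after rescaling (9.762), with 19, 8, 15 and 10 higher at an unadjusted limma p under 0.05. With the length trend removed 3 rose, of which 1 was shared, and 1 fell (Mrps36). Over all genes the 355 higher and 276 lower became 95 and 83 with rescaling, 20 and 11 without the time term and 39 and 25 with the estimated prior degrees of freedom, and 430 fell with the length trend removed. Leaving out 1 library gave 0 to 39 members higher, 16 to 1886 genes higher (23 without the 24 h control, 402 without LTα1β2 48 h) and 6 to 3063 lower (8 and 370). The 18 members past 1.5-fold at 48 h became 9 (and 1 lower) with the length trend removed and 1 at a 2-fold rule. The 12 with time in LTα1β2 became 25 with rescaling, 5 with the length trend removed and 1 at 2-fold. The cause was not tested. The edgeR alternative was not run, and limma voom on the recovered reads took its place. No paired analysis was possible because each group holds 1 library, and the shared number 1 only names it. Depth limits members near 10 CPM, such as Mrps18c and Mrps36, whose lowest counts were 121 and 100 reads.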
